A study of Mus musculus with 8 samples.

Results

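Mitochondrial ribosomal protein genes are the nuclear genes whose products build the ribosome inside mitochondria. They were taken as every entry of the deposited gene table whose symbol is MRPL or MRPS followed by a number, with or without one final letter. The rule found 77 genes of the 10663 listed, and it used no measured value. By the place of the protein in known structures, 50 belong to the large subunit and 26 to the small subunit, and Mrps36 belongs to neither. Mrps18a and Mrps30 were counted with the large subunit, where their proteins sit in spite of their names. Mrpl53, another gene of the large subunit, was not analysed here.

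Gene expression was measured by RNA sequencing of total RNA from 3T3-L1 cells, a mouse fibroblast line that can be turned into fat cells in culture and that the labels give as adipocytes at passage 2 to 3. By their labels, 4 libraries are controls and 4 overexpress the microRNA miR-690, here called miR-690oe as in the labels. The labels' treatment protocol names a miR-690 mimic at 5 pM for all 8 libraries, the controls among them, and the sources used here do not say what else the control cells received. Nothing in the labels says that the 4 libraries of a group were separate cultures, so the p-values below measure the spread between libraries, which may be technical. All 10 adipocyte markers looked for had a value in each library. In the controls the highest was Fabp4, a fatty acid carrier of fat cells, at 6573 ± 333 CPM (reads per 1000000 assigned reads, SD, n = 4). The lowest was Slc2a4 at 27.8 ± 3.07 CPM. All 6 preadipocyte and fibroblast markers had values as well, with Dlk1 the highest at 1382 ± 106 CPM. The libraries held 29773446 to 38235522 reads assigned to listed genes, and a member drew between 74 and 9372 of them.

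The mitochondrial ribosome translates the few messenger RNAs of the mitochondrial genome, which encode core subunits of the respiratory chain and the ATP synthase. Its ribosomal RNAs come from the mitochondrial genome, while all of its proteins are encoded in the nucleus, made in the cytosol and imported. Some of the proteins have counterparts in bacterial ribosomes and others were gained in mitochondria. Fat cells draw on the respiratory chain when they burn and store fuel, and the genes of mitochondria are known to rise as 3T3-L1 cells become adipocytes.

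The microRNA is shown first, because its seed, bases 2 to 8 in capitals, is what pairs with target messages. The mature sequence is from RefSeq and lies at chr16:28599940-28599961 on the minus strand of GRCm38.p6.
mmu-miR-690: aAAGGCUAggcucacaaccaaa

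A perfect match to that seed reads TAGCCTT in DNA letters. Annotated 3′ UTRs, the untranslated ends of messages that microRNAs mostly act through, held at least 1 match in 10 of the 77 members (13.0%) and in 1159 of 10333 tested genes with such a region annotated (11.2%). Matches in the 3 members of this kind with the lowest change are printed in mouse GRCm38 from GENCODE M21, with the match in capitals; Mrps26 held 2 matches and the first is given. They lie at chr14:20390717-20390723 on the minus strand for Mrps16, chr2:130567343-130567349 on the plus strand for Mrps26 and chr19:4966101-4966107 on the plus strand for Mrpl11, and Mrpl48 held 4 matches, the most of any member.
Mrps16: tggggctttaaTAGCCTTacctttttttt
Mrps26: tcacatgcatgTAGCCTTatgtggacatg
Mrpl11: atctcattattTAGCCTTggctggcctga

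Promoters of 5 members are printed next, because NRF1, ETS factors such as GABP and YY1 are known regulators of nuclear genes for mitochondria. Each is the RefSeq GRCm38.p6 stretch from 250 bases before to 50 after the annotated start, read on the strand of the gene, with motif matches in capitals on either strand. The motifs searched were GCGCNTGCG for NRF1, CCGGAAG for ETS factors and AAGATGGC for YY1, none of which overlapped another in the stretches shown. Mrps21 (chr3:95871465-95871764, minus strand) held an NRF1 and an ETS match, Mrpl14 (chr17:45686099-45686398, plus strand) an NRF1 match, Mrps24 (chr11:5707652-5707951, minus strand) a YY1 match, and Mrps12 (chr7:28741772-28742071, minus strand) a YY1 and an ETS match. Mrpl50 (chr4:49521034-49521333, minus strand), the member with the highest change, held none. So did members with low changes that are not printed, such as Mrps36 (log2 fold change -0.35) and Mrpl28 (-0.33). In all, 25 of the 68 members with a promoter held none.
Mrps21 promoter: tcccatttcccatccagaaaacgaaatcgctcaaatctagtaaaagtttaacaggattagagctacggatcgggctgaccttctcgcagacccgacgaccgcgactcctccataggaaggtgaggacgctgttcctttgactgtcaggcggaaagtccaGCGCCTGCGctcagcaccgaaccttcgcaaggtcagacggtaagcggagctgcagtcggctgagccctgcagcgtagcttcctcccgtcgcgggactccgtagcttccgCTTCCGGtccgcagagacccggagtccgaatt
Mrpl14 promoter: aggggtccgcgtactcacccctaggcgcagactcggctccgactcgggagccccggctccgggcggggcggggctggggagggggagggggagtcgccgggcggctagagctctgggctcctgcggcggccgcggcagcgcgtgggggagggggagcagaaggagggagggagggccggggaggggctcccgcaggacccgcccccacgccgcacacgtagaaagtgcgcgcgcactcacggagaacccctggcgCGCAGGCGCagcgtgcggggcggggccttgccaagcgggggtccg
Mrps24 promoter: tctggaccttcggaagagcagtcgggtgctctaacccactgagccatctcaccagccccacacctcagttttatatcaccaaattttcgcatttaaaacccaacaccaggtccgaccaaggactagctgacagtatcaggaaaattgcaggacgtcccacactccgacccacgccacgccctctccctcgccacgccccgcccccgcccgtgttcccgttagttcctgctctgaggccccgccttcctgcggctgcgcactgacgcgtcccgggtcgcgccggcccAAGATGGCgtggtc
Mrps12 promoter: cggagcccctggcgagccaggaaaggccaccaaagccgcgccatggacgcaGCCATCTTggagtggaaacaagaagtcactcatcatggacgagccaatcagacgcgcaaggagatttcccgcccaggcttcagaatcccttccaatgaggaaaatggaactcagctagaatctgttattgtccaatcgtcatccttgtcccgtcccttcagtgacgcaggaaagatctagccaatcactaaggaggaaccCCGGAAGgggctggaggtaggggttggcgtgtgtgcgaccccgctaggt
Mrpl50 promoter: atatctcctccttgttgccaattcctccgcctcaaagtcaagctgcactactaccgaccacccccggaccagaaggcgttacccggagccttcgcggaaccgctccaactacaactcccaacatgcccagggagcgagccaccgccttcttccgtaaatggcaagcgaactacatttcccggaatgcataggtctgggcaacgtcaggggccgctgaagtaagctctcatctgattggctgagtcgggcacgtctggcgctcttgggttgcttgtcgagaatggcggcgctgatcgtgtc

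The comparison of the 2 groups asks how gene expression in the adipocytes differed when miR-690 was overexpressed. Transcripts of the mitochondrial ribosome were lower in miR-690oe, in both subunits and by a modest amount. Summed over the 77 members, the controls held 5989, 6232, 5810 and 5885 CPM and the miR-690oe libraries 4827, 5280, 5258 and 5446 CPM. Every miR-690oe sum lay below every control sum, with means of 5979 ± 184 and 5203 ± 264 CPM (SD, n = 4 each) and a ratio of 0.870. In bulk RNA, fewer cells that express a gene and less of its RNA per cell cannot be told apart.

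Gene by gene, 56 of the 77 members were lower in miR-690oe and 0 were higher at a limma adjusted p under 0.05, a test run over all 10658 genes that passed a filter on low values, as all 77 members did. Over those genes, 17.4% were called lower and 26% higher. As ratios turned back from the log2 fold change, the 56 calls ran from 0.778 to 0.914. The log2 fold change, on the scale log2(CPM + 0.5), had a median of -0.20 over the members, against 0.02 over all genes tested, and 75 of the 77 values were negative. In 52 members the groups did not overlap with miR-690oe lower, and in 0 with miR-690oe higher, where 15.9% and 22.4% of all genes did so. The authors' deposited table, from their own test, listed 63 members as lower and 0 as higher at a false discovery rate under 0.05, where 20.6% of its genes were lower, and the 63 include all 56 called here.

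The share of calls among all genes that were higher depended on scaling: it was 59.9% here, 50.1% after TMM scaling and 46.4% after quantile normalization. Under these 2 scalings 64 and 70 members were lower and 0 higher, while the share of all genes called lower rose to 22.05% and 23.9%. The plot of all members by library shows the change in most rows.

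**Figure D1:**
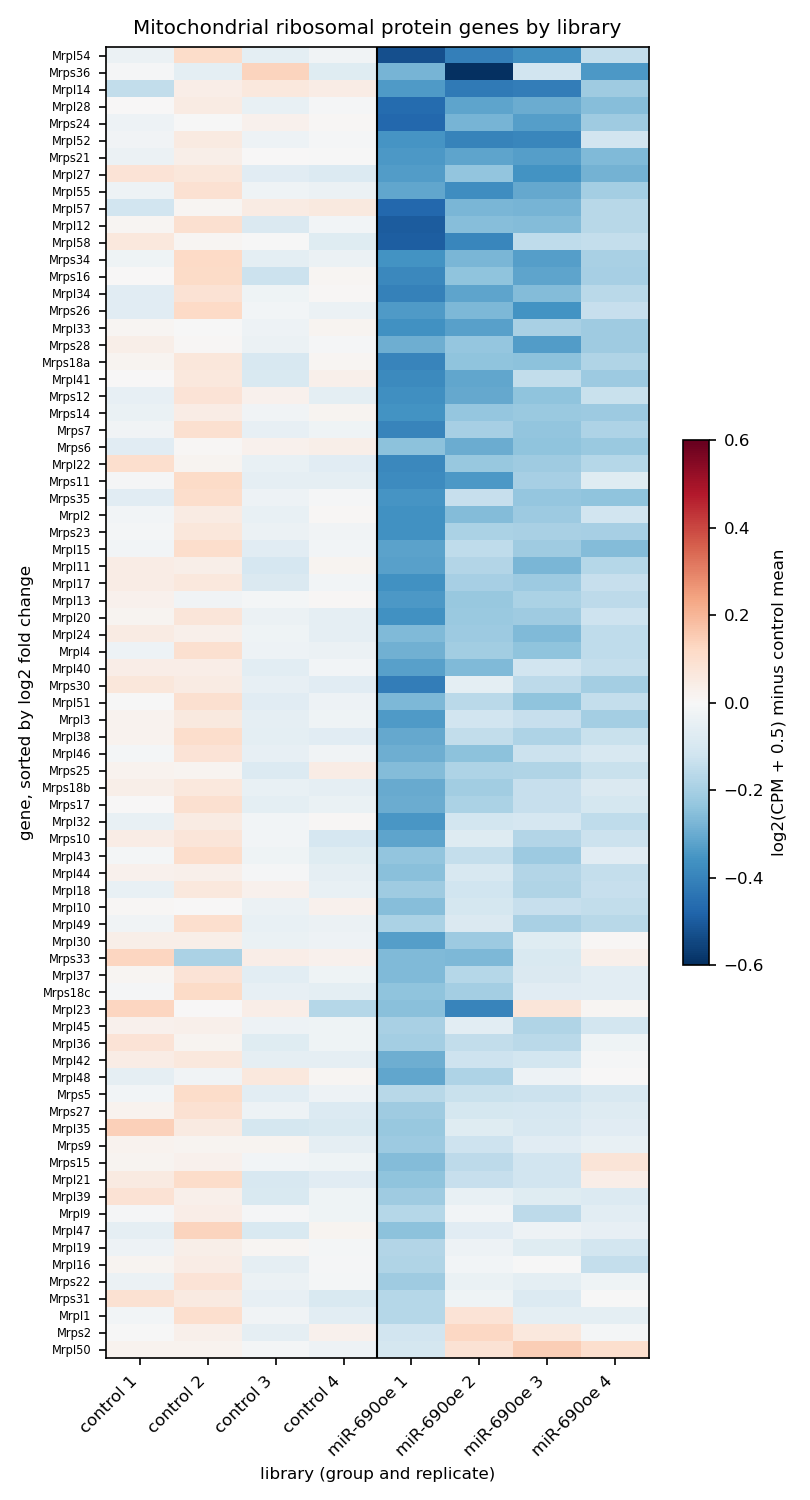
Each row is one mitochondrial ribosomal protein gene and each column one library; colour gives log2(CPM + 0.5) minus the mean of the 4 control libraries, blue for lower and red for higher. The miR-690oe columns are blue in nearly all rows, most deeply in miR-690oe 1, and only Mrps2 and Mrpl50 at the bottom have a higher mean in miR-690oe.

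The size of the change differed between the miR-690oe libraries. The median over members of the log2 deviation from the control mean was -0.31, -0.20, -0.18 and -0.14 in miR-690oe 1 to 4, and lay between -0.04 and 0.06 in the controls. Replicate 1 of miR-690oe held the lowest of the 8 values in 66 members, and control 2 held the highest in 49. Over all genes the same libraries differed in how their deviation followed transcript length. Its slope, per 10-fold increase in annotated transcript length, was 0.67, 0.51, 0.47 and 0.34 on the log2 scale in miR-690oe 1 to 4, and between -0.06 and 0.04 in the controls. The order of the 4 libraries was thus the same for the members' deviation and for the slope.

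Large and small subunits changed by nearly the same proportion. Large subunit members summed to 4094 ± 128 CPM in the controls and 3565 ± 190 CPM in miR-690oe, a ratio of 0.871. Small subunit members summed to 1881 ± 59.7 and 1635 ± 74.7 CPM, a ratio of 0.869 (SD, n = 4 each). The ratio of large to small was 2.18 ± 0.03 in the controls and 2.18 ± 0.02 in miR-690oe, a difference well inside the spread between libraries. Of the large subunit members 36 of 50 were lower, with a median log2 fold change of -0.20, and of the small subunit members 19 of 26, with a median of -0.21. Members with a bacterial counterpart were lower in 33 of 45 cases (median -0.23) and those without one in 23 of 32 (median -0.19). Mrps36, of neither subunit, is counted among the 32.

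**Figure D2:**
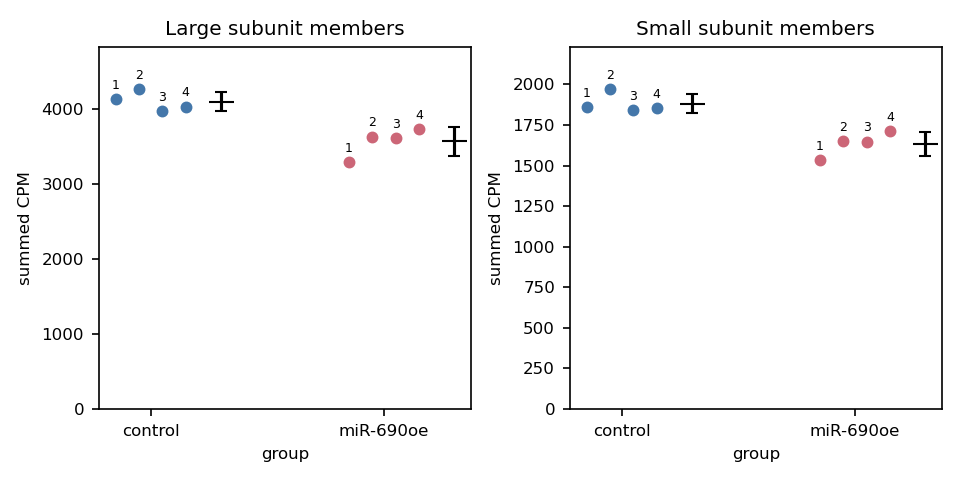
Summed CPM of the large subunit members (left) and the small subunit members (right) in each library, with points numbered by replicate and the bar giving mean and SD of the 4 libraries. In both panels each miR-690oe library lies below each control library, and miR-690oe 1 is the lowest.

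Large subunit members with a bacterial counterpart were lower in 20 of 29 cases, with a median log2 fold change of -0.23. Mrpl2, the counterpart of a bacterial protein around the peptidyl transferase centre, where peptide bonds form, stood at 94.8, 99.2, 92.9 and 96.3 CPM in the controls and at 74.4, 80.001, 82.3 and 88.4 CPM in miR-690oe. The groups did not overlap, and the log2 fold change was -0.24 (SE 0.05, adjusted p = 0.00177 in limma). Mrpl3, another core protein, whose gene is mutated in a human cardiomyopathy, read 121, 124, 115 and 117 CPM in the controls and 94.1, 110.2, 109 and 104 CPM in miR-690oe. All 4 miR-690oe values were below the lowest control, with a log2 fold change of -0.20 (SE 0.05, adjusted p = 0.00571 in limma). Mrpl27, the counterpart of a bacterial protein that reaches towards the centre, gave 65.2, 64.5, 58.6 and 58.0 CPM against 48.7, 52.2, 47.9 and 50.5 CPM. Its controls fell in a higher pair, replicates 1 and 2, and a lower pair, and both stayed above miR-690oe (log2 fold change -0.30, SE 0.05, adjusted p = 0.000361 in limma). An opposite-strand gene, Eme1, shares 75 exon bases with Mrpl27.

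Mrpl14 and Mrpl28 had the lowest changes among the large subunit proteins with a bacterial counterpart. Mrpl14 sits at the face that meets the small subunit and binds the assembly factor Malsu1. Its values were 52.0, 59.4, 60.3 and 59.5 CPM in the controls and 45.5, 42.9, 43.2 and 49.8 CPM in miR-690oe. Control 1 was the lowest control by a wide margin and still exceeded every miR-690oe library, and the log2 fold change was -0.35 (SE 0.06, adjusted p = 0.000329 in limma). Mrpl28 read 117, 121, 114 and 117 CPM in the controls and 85.1, 94.2, 95.4 and 98.1 CPM in miR-690oe. Its groups were far apart and the spread within each was small (log2 fold change -0.33, SE 0.05, adjusted p = 8.6e-05 in limma).

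Per length, the most abundant large subunit members were Mrpl33, Mrpl12 and Mrpl20, and the least abundant was Mrpl48. As CPM per kilobase of annotated transcript in the controls (SD, n = 4), Mrpl33 stood at 257 ± 3.68, Mrpl12 at 213 ± 11.3, Mrpl20 at 171 ± 6.91 and Mrpl48 at 4.69 ± 0.163. The steps between the leading 3 exceeded their spread between libraries, as did that from Mrpl48 to the next lowest, Mrpl23 at 6.22 ± 0.594. Levels per length rest on a single annotated transcript of each gene, often the longest of its rank, and that spread leaves out any error in the length. Without length scaling Mrpl48, annotated at 4285 nt, had a control mean of 20.1 CPM, and Mrpl23, at 692 nt, had 4.31 CPM. Mrpl33, one of the smallest proteins of the subunit, gave 124, 123, 120.4 and 124 CPM against 95.5, 97.8, 107 and 106 CPM. The miR-690oe libraries formed a lower pair, replicates 1 and 2, and a higher pair, both under the controls (log2 fold change -0.27, SE 0.05, adjusted p = 0.000274 in limma). Mrpl20, whose bacterial counterpart is needed for assembly of the large subunit, gave 132, 137, 127 and 125 CPM against 101, 112, 112 and 119.6 CPM. The groups came close without overlapping, at control 4 and miR-690oe 4, with a log2 fold change of -0.23 (SE 0.05, adjusted p = 0.00224 in limma).

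The stalk, which recruits the translation factors that hydrolyse GTP, was lower in the 3 members described here. Mrpl12, the stalk protein itself, which has also been reported to bind the mitochondrial RNA polymerase, drew the most reads of any member. It read 283, 300.001, 264 and 277 CPM in the controls and 198, 235, 235 and 249.9 CPM in miR-690oe. Replicate 1 of miR-690oe was well below the other 3, which were still under every control (log2 fold change -0.30, SE 0.06, adjusted p = 0.00119 in limma). An opposite-strand lincRNA, Gm16755, shares 200 exon bases with it. Mrpl10, at the base of the stalk, gave 133, 133, 129 and 135 CPM against 111, 123, 121 and 119.5 CPM. The change was smaller than that of Mrpl12 and the groups did not overlap (log2 fold change -0.16, SE 0.04, adjusted p = 0.00751 in limma). Mrpl11, of the nearby GTPase-associated region, gave 78.6, 78.0, 71.0 and 77.1 CPM against 60.6, 67.4, 62.9 and 67.6 CPM. No value was shared between the groups, and the log2 fold change was -0.24 (SE 0.05, adjusted p = 0.00178 in limma).

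Large subunit proteins gained in mitochondria were lower in 16 of 21 cases, with a median log2 fold change of -0.19. Mrpl54 had the lowest change of all members. Its values were 54.9, 60.7, 54.0 and 55.4 CPM in the controls and 38.9, 42.1, 43.5 and 50.8 CPM in miR-690oe. Replicate 1 was the lowest and replicate 4 the highest of miR-690oe, and the groups did not overlap (log2 fold change -0.36, SE 0.07, adjusted p = 0.000638 in limma). Mrpl52 gave 57.0, 60.1, 56.6 and 57.6 CPM against 45.1, 43.7, 43.9 and 53.4 CPM. Replicate 4 of miR-690oe stood apart from the other 3 and was nearer to the controls, and the log2 fold change was -0.32 (SE 0.06, adjusted p = 0.000712 in limma). Mrpl58, also known as Ict1, is a peptidyl-tRNA hydrolase built into the large subunit and frees stalled chains. It read 52.4, 50.6, 49.98 and 47.6 CPM in the controls and 35.5, 38.1, 44.99 and 45.3 CPM in miR-690oe. Replicates 1 and 2 of miR-690oe were lower than 3 and 4, and all were below the controls (log2 fold change -0.29, SE 0.07, adjusted p = 0.00345 in limma).

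**Figure D3:**
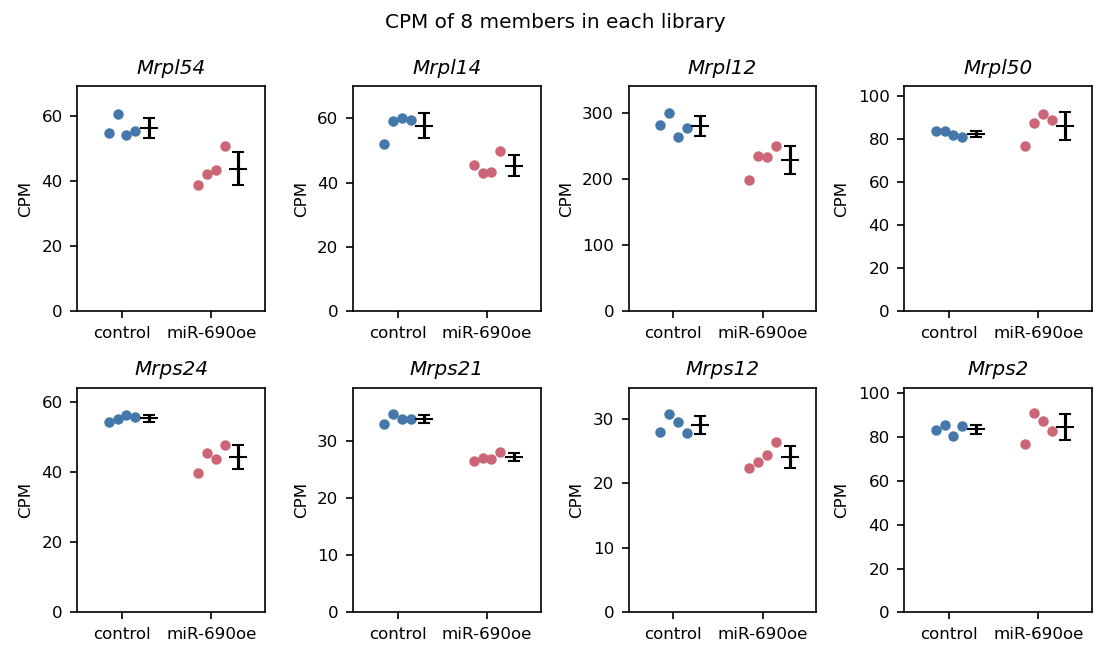
CPM of 4 large subunit members (top) and 4 small subunit members (bottom) in each library, with the bar giving mean and SD of the 4 libraries of a group. The groups are apart in Mrpl54, Mrpl14, Mrpl12, Mrps24, Mrps21 and Mrps12, and overlap in Mrpl50 and Mrps2.

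The other large subunit members with a role described here were lower as well. Mrpl45, which anchors the ribosome at the inner membrane by the exit tunnel, gave 111, 112, 107 and 108 CPM against 95.6, 105, 96.6 and 101 CPM. The highest miR-690oe value, replicate 2, was just under the lowest control (log2 fold change -0.14, SE 0.04, adjusted p = 0.0199 in limma). The call was lost without control 1, control 2 or miR-690oe 3, at an adjusted p of 0.0565, 0.0639 and 0.0525 in limma. Mrpl41, also studied as a partner of Bcl2, had a log2 fold change of -0.27 (SE 0.06, adjusted p = 0.00161 in limma) with groups apart. Mrpl44, which has a fold for double-stranded RNA and is mutated in a human cardiomyopathy, had one of -0.17 (SE 0.05, adjusted p = 0.0118 in limma), also with groups apart. In Mrps30, a large subunit protein by position, the controls read 103, 102, 94.5 and 93.5 CPM and the miR-690oe libraries 73.4, 93.9, 87.8 and 84.9 CPM. Replicate 2 of miR-690oe exceeded control 4, so the groups overlapped, and the log2 fold change was -0.21 (SE 0.06, adjusted p = 0.0141 in limma).

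The members of the large subunit that were not called lower numbered 14. Mrpl50 was the highest of them, at 83.8, 83.7, 82.1 and 80.9 CPM in the controls and 76.7, 87.7, 91.6 and 88.7 CPM in miR-690oe. Replicate 1 of miR-690oe was below all controls and the other 3 above them, and the log2 fold change was 0.06 (SE 0.05, adjusted p = 0.404 in limma). Without miR-690oe replicate 1 it was the one member called higher. Mrpl1, whose bacterial counterpart forms the mobile stalk by the tRNA exit, had a log2 fold change of -0.05 (SE 0.06, adjusted p = 0.497 in limma) with overlapping groups. Mrpl48, at 19.3 to 21.0 CPM in the controls and 16.1 to 20.1 CPM in miR-690oe, had one of -0.13 (SE 0.07, adjusted p = 0.146 in limma), and shares 403 exon bases with the opposite-strand gene Rab6a.

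In the small subunit the lowest changes were those of Mrps24, Mrps21, Mrps34, Mrps16 and Mrps26. Mrps24 is the counterpart of a bacterial protein at the entry of the messenger RNA channel. It stood at 54.1, 55.1, 56.3 and 55.6 CPM in the controls and 39.8, 45.5, 43.8 and 47.7 CPM in miR-690oe. Its controls were nearly equal and every miR-690oe value was well under them, with a log2 fold change of -0.32 (SE 0.06, adjusted p = 0.000293 in limma). Mrps21 gave 32.9, 34.7, 33.8 and 33.8 CPM against 26.5, 27.0, 26.8 and 28.1 CPM. Both groups were tight and far apart, with a log2 fold change of -0.31 (SE 0.05, adjusted p = 0.000181 in limma). Mrps34, gained in mitochondria and mutated in a human disease of mitochondria, gave 77.9, 86.2, 76.3 and 77.6 CPM against 61.9, 65.7, 63.0 and 69.3 CPM. Control 2 was above the other controls, which were themselves above all miR-690oe libraries (log2 fold change -0.29, SE 0.05, adjusted p = 0.000441 in limma).

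Mrps16 and Mrps26 are the small subunit members whose seed matches are printed above. Mrps16, known for human disease mutations, read 65.9, 71.4, 60.1 and 66.4 CPM in the controls and 50.2, 55.5, 52.7 and 57.3 CPM in miR-690oe. The closest values were control 3 and miR-690oe 4, which did not overlap (log2 fold change -0.29, SE 0.06, adjusted p = 0.000996 in limma). Mrps26, gained in mitochondria, gave 127, 146, 132 and 131 CPM against 106, 111, 104 and 121 CPM. Replicate 4 was the highest of miR-690oe and remained under the lowest control, and the log2 fold change was -0.28 (SE 0.06, adjusted p = 0.0009 in limma).

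Mrps12 and Mrps7 have known places in the small subunit and were lower too. Mrps12 lies at the decoding centre and is the counterpart of the protein altered in streptomycin-resistant bacteria. Its values were 28.0, 30.7, 29.5 and 27.8 CPM in the controls and 22.4, 23.3, 24.4 and 26.3 CPM in miR-690oe. The groups were separate, with miR-690oe 4 nearest to the controls (log2 fold change -0.26, SE 0.06, adjusted p = 0.00294 in limma). Mrps7, of the head, gave 135, 146, 132 and 134 CPM against 104, 119, 116 and 120.4 CPM. Replicate 1 of miR-690oe was the lowest and the groups did not overlap, with a log2 fold change of -0.25 (SE 0.05, adjusted p = 0.00115 in limma).

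Per length the leading small subunit members were Mrps6, Mrps18c and Mrps34, at 274 ± 8.72, 113 ± 6.43 and 86.6 ± 4.92 CPM per kilobase in the controls, and Mrps25 was last at 9.06 ± 0.344 (SD, n = 4). The steps between the leading 3 exceeded the spread, whereas Mrps25 did not differ from the next lowest, Mrps33 at 9.18 ± 0.874, beyond it. Mrps6, the counterpart of a bacterial protein that pairs with S18, gave 221, 233, 236 and 237 CPM against 195, 188, 196 and 198 CPM. All miR-690oe libraries lay close together under the controls (log2 fold change -0.25, SE 0.04, adjusted p = 0.000193 in limma), and exons of Mrps6 overlap those of Slc5a3 on the same strand over 159 bases. Mrps25 gave 55.7, 55.7, 52.0 and 56.7 CPM against 45.8, 48.4, 48.4 and 50.05 CPM. The groups were apart, with a log2 fold change of -0.19 (SE 0.05, adjusted p = 0.00559 in limma), but Mrps25 shares 3533 exon bases with Nr2c2 on the opposite strand. Exons of 25 members overlap another gene, 21 on the opposite strand and 4 on the same one. The sources used here do not name the strand setting of the authors' counting, so reads of such pairs cannot be told apart.

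Of the 7 small subunit members that were not called, Mrps2 was the highest. It read 83.4, 85.3, 80.4 and 84.9 CPM in the controls and 77.0, 90.9, 87.3 and 82.8 CPM in miR-690oe. Replicate 1 of miR-690oe was below the controls, replicates 2 and 3 above them, and the log2 fold change of 0.01 (SE 0.05, adjusted p = 0.843 in limma) turned negative under TMM, median-of-ratios and quantile scaling and without control 3, miR-690oe 2 or miR-690oe 3. Mrps31 and Mrps22, both gained in mitochondria, had log2 fold changes of -0.07 (SE 0.05, adjusted p = 0.315 in limma) and -0.08 (SE 0.05, adjusted p = 0.201 in limma), with overlapping groups. Human mutations are known in Mrps2 and Mrps22.

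The 3 paralogs of bacterial S18 sit in different places, Mrps18a in the large subunit and Mrps18b and Mrps18c in the small one. Mrps18a gave 138, 143, 127 and 137 CPM in the controls and 103, 115, 115 and 119.9 CPM in miR-690oe. For Mrps18b the values were 36.0, 36.8, 34.0 and 33.8 CPM and 28.4, 30.3, 31.9 and 33.0 CPM. For Mrps18c they were 71.7, 78.2, 69.8 and 69.3 CPM and 60.9, 62.5, 68.9 and 69.1 CPM. None of the 3 overlapped between groups, though in Mrps18c miR-690oe 4 came close to control 4. Their log2 fold changes were -0.27 (SE 0.05, adjusted p = 0.000737 in limma), -0.18 (SE 0.06, adjusted p = 0.0172 in limma) and -0.14 (SE 0.06, adjusted p = 0.0457 in limma). Mrps18b was not called without control 2 (adjusted p = 0.0611 in limma), nor Mrps18c without any 1 of 6 libraries, all but miR-690oe 3 and 4 (adjusted p = 0.0503 to 0.170). Reads shared between such copies could be split by the authors' counting, whose rules the sources used here do not describe. Mrps36, named as ribosomal and since found in the 2-oxoglutarate dehydrogenase complex of the citric acid cycle, drew the fewest reads of any member. It read 3.86, 3.71, 4.30 and 3.67 CPM in the controls and 3.11, 2.26, 3.55 and 2.95 CPM in miR-690oe. The groups were apart, with replicate 2 of miR-690oe lowest, and the log2 fold change of -0.35 (SE 0.12, adjusted p = 0.0251 in limma) rests on 74 to 128 reads per library. It was not called without control 3 or miR-690oe 2 (adjusted p = 0.0716 and 0.0901 in limma).

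Members are short, and length moved with the change across the transcriptome. Their annotated transcripts had a median of 1316 nt, against 2984 nt over all genes tested. Across all 10614 genes with a length, the log2 fold change and the log10 of transcript length had a Pearson r of 0.71, a description over genes of the same libraries. Among transcripts of at most 1000 nt, 61.8% of all genes were lower, and 19 of the 24 members. From 1001 to 2000 nt 40.1% of all genes were lower, and 20 of 28 members. From 2001 to 3000 nt the share was 14.9%, against 5 of 8 members, and from 3001 to 4500 nt it was 4.84%, against 9 of 13 members. Above 4500 nt it was 1.62%, against 3 of 4 members. Members thus stayed mostly lower in every length range, while the share among all genes fell from range to range.

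**Figure D4:**
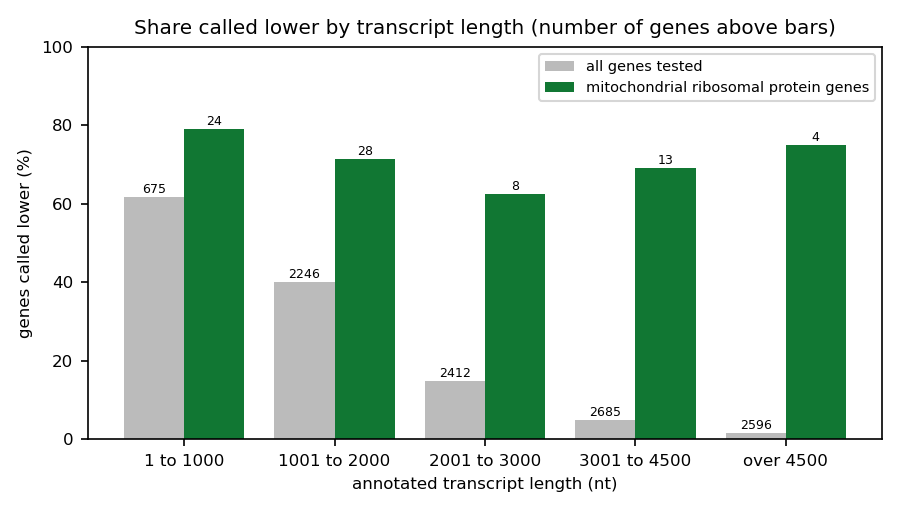
Percentage of genes called lower in miR-690oe (limma adjusted p under 0.05) by annotated transcript length in nt, for all genes tested (grey) and mitochondrial ribosomal protein genes (green), with the number of genes above each bar. The grey bars fall from 61.8% to 1.62%, and the green bars stay between 62.5% and 79.2%.

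By coding length the picture differed. Of all genes coding for at most 500 nt, 50.6% were lower, and 21 of 27 members. From 501 to 1000 nt 31.1% were lower, and 30 of 39 members, and from 1001 to 1500 nt 16.7%, and 5 of 11 members. No member had a longer coding sequence. Among members the log2 fold change followed coding length (Pearson r = 0.45, n = 77 genes) more than transcript length (r = 0.32), a description over genes that share the same libraries. The 4 members with annotated transcripts above 4500 nt, Mrpl17, Mrpl19, Mrps17 and Mrps25, named after their values were seen, have coding sequences of 528, 876, 360 and 513 nt. Which isoforms were expressed was not measured here.

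**Figure D5:**
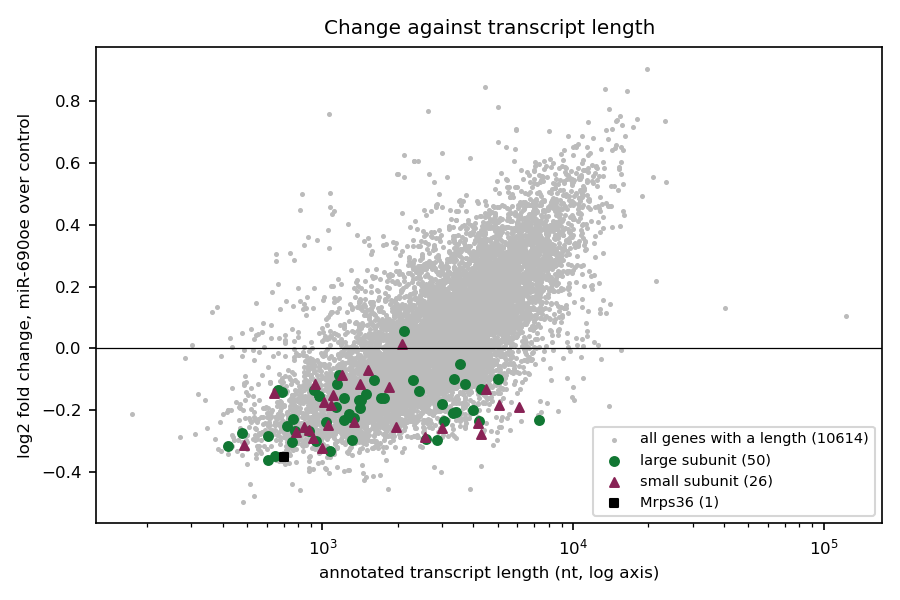
Log2 fold change of miR-690oe over control against annotated transcript length in nt on a log axis, for all 10614 genes with a length (grey) and for the members by subunit. The cloud of all genes rises with length, whereas the members lie between -0.36 and 0.06 at every length.

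With the trend on transcript length and GC content removed from each library, 23 members were lower and 0 higher, where 9.45% of all genes were lower and 8.08% higher, and 20 of the 23 were among the 56 called before. The members' median log2 fold change was then -0.08 and -0.01 over all genes, compared with -0.20 and 0.02 before the removal. In the 4 miR-690oe libraries the members' median deviation became -0.11, -0.07, -0.08 and -0.09. After removal of the trend on coding length and GC content instead, 23 members were again lower, against 12.2% of all genes, and the median was -0.11. In both fits 17 members were lower. Of the members described above, Mrpl3, Mrpl11, Mrpl28, Mrpl33, Mrpl58, Mrps16, Mrps25, Mrps26 and Mrps30 were lower in both, Mrpl45, Mrpl48 and Mrps7 after the first removal alone, and Mrpl2, Mrpl27, Mrps22 and Mrps24 after the second alone. Within the members the remaining log2 fold change followed annotated transcript length (Pearson r = -0.74, n = 77 genes), and it was most negative for long annotated transcripts, such as -0.55 for Mrpl17 and -0.45 for Mrps25.

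Of the 56 members called lower, 45 were also lower without each library in turn, and 13 were lower in every fit that was run. The 13 were Mrpl3, Mrpl11, Mrpl15, Mrpl17, Mrpl51, Mrpl57, Mrpl58, Mrps14, Mrps16, Mrps25, Mrps26, Mrps30 and Mrps35. All 13 have annotated transcripts of at least 2572 nt, against a median of 1316 nt over the members. Removal of the transcript length trend gave the most negative values to members with long annotated transcripts, so this list also reflects annotated length. With the transcript length trend removed, the log2 fold change was -0.32 for Mrpl3 (adjusted p = 0.000673 in limma), -0.31 for Mrps16 (adjusted p = 0.00154), -0.30 for Mrpl58 (adjusted p = 0.00891) and -0.27 for Mrpl11 (adjusted p = 0.00171). Of the 5 members with the lowest change before the removal, Mrpl28 was still lower, at -0.14 (adjusted p = 0.0241 in limma). The other 4 were not called: Mrpl54 had -0.14 (adjusted p = 0.0609 in limma), Mrps36 -0.20 (adjusted p = 0.269), Mrpl14 -0.13 (adjusted p = 0.0894) and Mrps24 -0.13 (adjusted p = 0.052). Mrpl12, the most counted member, had -0.13 (adjusted p = 0.0769 in limma).

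Members with a seed match changed by about as much as those without. Of the 10 with a match, 9 were lower, and of all 77 members 56 were. The median log2 fold change was -0.22 for members with a match, against -0.19 for the members without one. Over all genes tested, 112 of the 1159 with a match were lower, where 17.4% of all genes were. The medians over all genes were 0.09 with a match and 0.01 without. These regions are of unequal length: members' 3′ UTRs had a median of 327 nt, against 1026 nt over all genes, and those of the 10 with a match 2796.5 nt. Mrpl48, with 4 matches, was not called. A match is a description of letters, and binding of miR-690 was not measured.

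Promoter motifs were more frequent among members than among all genes, and members with and without them did not differ much in change. The NRF1 letters stood in 18 of 74 member promoters (24.3%), 14.1% of the promoters of tested genes and 6.31% of all promoters in the table. The ETS letters stood in 25 member promoters (33.8%), against 18.9% and 8.86%, and the YY1 letters in 12 (16.2%), against 4.84% and 2.75%. For 68 members a promoter was given, and 25 held none of the 3 motifs. The median log2 fold change was -0.18 with the NRF1 letters and -0.19 without, -0.24 with the ETS letters and -0.17 without, and -0.17 with the YY1 letters and -0.19 without.

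Of 10 genes for transcription factors and coactivators of nuclear genes for mitochondria, 6 were higher and 0 lower. Over all genes tested 26% were higher. The annotated transcripts of the 10 had a median of 4321.5 nt, and above 4500 nt 1782 of 2596 genes tested were higher. The list goes beyond the factors of the 3 motifs: it also holds Myc, which was one of the 6, and Esrra. Ppargc1b, a coactivator of mitochondrial biogenesis, went from 8.52 ± 0.383 to 11.4 ± 0.737 CPM (SD, n = 4 each), a log2 fold change of 0.40 (adjusted p = 0.000486 in limma). Gabpb2, of the GABP complex, had 0.36 (adjusted p = 0.000288 in limma) and Pprc1, a relative of the coactivator, 0.31 (adjusted p = 0.000829). Once the length and GC trend was removed, 4 of the 10 were higher, where 8.08% of all genes were. Gabpb2, with an annotated transcript of 8661 nt, then had 0.02 (adjusted p = 0.823 in limma). The 4 were Ppargc1b, Pprc1, Myc and Nrf1. Nrf1, named with Myc after its values were seen, stood at 38.7 ± 1.35 and 40.1 ± 1.42 CPM and was not called before that removal (adjusted p = 0.448 in limma), and had 0.14 after it (adjusted p = 0.0442).

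Mitochondrial ribosomal proteins under other symbols were lower in 4 of the 5 genes not among the members, where 17.4% of all genes were. Gadd45gip1, a large subunit protein, stood at 56.8, 59.9, 60.1 and 57.2 CPM in the controls and 45.1, 47.0, 45.8 and 49.5 CPM in miR-690oe. The groups were far apart, with a log2 fold change of -0.32 (adjusted p = 0.000118 in limma). Chchd1 and Aurkaip1, of the small subunit, had -0.22 (adjusted p = 0.00556 in limma) and -0.20 (adjusted p = 0.00802). Once the length and GC trend was removed, Gadd45gip1 was still lower, at -0.28 (adjusted p = 0.000474 in limma), and Chchd1, at -0.06 (adjusted p = 0.355), and Aurkaip1, at -0.02 (adjusted p = 0.798), were not called. Gadd45gip1 is annotated at 2494 nt, against 616 nt for Chchd1 and 1159 nt for Aurkaip1. Dap3, the remaining gene called lower, named after its values were seen, had -0.17 before that removal (adjusted p = 0.0161 in limma). After it Dap3, annotated at 4760 nt, had -0.30 (adjusted p = 0.00397 in limma). Ptcd3, the small subunit protein that was not called in the main fit and is named after its values were seen, had 0.10 there (adjusted p = 0.107 in limma).

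Genes that act with the ribosome were less uniform. In 4 lists of 61 genes, which include the 5 above, 17 were lower (27.9%) and 4 higher, with a median log2 fold change of -0.08. Over all genes tested 17.4% were lower and 26% higher. The annotated transcripts of the 61 had a median of 2449 nt, against 1316 nt for the members. Of 13 translation factors 3 were lower (23.1%) and 2 higher. Tufm, the elongation factor that brings tRNAs, had -0.21 (adjusted p = 0.00256 in limma) and the initiation factor Mtif3 had -0.22 (adjusted p = 0.00604), while the initiation factor Mtif2 had 0.21 (adjusted p = 0.00203) and Guf1, related to bacterial elongation factor 4, had 0.14 (adjusted p = 0.0254). After removal of the length and GC trend Mtif2 was still higher, at 0.16 (adjusted p = 0.0186 in limma), and Mtif3 still lower, at -0.34 (adjusted p = 0.00209), whereas Tufm, at -0.09 (adjusted p = 0.159), and Guf1, at 0.04 (adjusted p = 0.502), were not called. Mtif3 is annotated at 4927 nt and Tufm at 1679 nt. With the trend on coding length and GC content removed instead, 0 genes of the 4 lists were higher, Mtif2 included. Guf1 was not called without control 1, control 4 or miR-690oe 2 (adjusted p = 0.0739, 0.0544 and 0.0933 in limma).

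Of 26 genes of ribosome assembly and rRNA modification, 8 were lower (30.8%) and 1 higher, where 17.4% and 26% of all genes were. Mpv17l2 had a log2 fold change of -0.29 (adjusted p = 0.000999 in limma), the ribosome-binding factor Rbfa -0.24 (adjusted p = 0.00387) and the pseudouridine synthase Trub2 -0.16 (adjusted p = 0.0144). Malsu1, the partner of Mrpl14, named after its values were seen, had -0.21 (adjusted p = 0.0177 in limma). Gtpbp10, a GTPase of large subunit assembly, had 0.18 (adjusted p = 0.0304 in limma), a call lost without control 2, 3 or 4 or miR-690oe 2 or 3 (adjusted p = 0.0615 to 0.0976). Trub2, at -0.18 (adjusted p = 0.0107 in limma), and Malsu1, at -0.26 (adjusted p = 0.0112), annotated at 3408 and 2819 nt, were still lower after removal of the length and GC trend. Mpv17l2 then had -0.09 (adjusted p = 0.231 in limma), Rbfa -0.08 (adjusted p = 0.241) and Gtpbp10 0.09 (adjusted p = 0.291), none of them called. Of 17 genes of mitochondrial transcription and RNA processing, 2 were lower (11.8%) and 1 higher. Hsd17b10, a subunit of the mitochondrial RNase P, had -0.27 (adjusted p = 0.000299 in limma) and Slirp -0.24 (adjusted p = 0.00102). Slirp forms a complex that stabilises messenger RNA with Lrpprc, which had 0.18 (adjusted p = 0.00823 in limma), the opposite direction. Once the length and GC trend was removed, Slirp had -0.30 (adjusted p = 0.000616 in limma), while Hsd17b10, at -0.09 (adjusted p = 0.0831), and Lrpprc, at 0.04 (adjusted p = 0.646), were not called. Slirp is annotated at 2701 nt and Hsd17b10 at 962 nt. Tfam, named after its values were seen, had -0.01 before that removal (adjusted p = 0.900 in limma) and -0.15 after it (adjusted p = 0.0348). In the 4 lists 8 of 61 genes were lower after that removal (13.1%), where 9.45% of all genes were. All 8 have annotated transcripts of at least 2494 nt, so these calls also reflect annotated length.

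Other families of short messages that cells make for protein complexes changed in the same direction. Cytosolic ribosomal protein genes, found by symbol, were lower in 75 of 76 cases with a median log2 fold change of -0.27, and NDUF genes of respiratory complex I in 35 of 36 with a median of -0.25. Their transcripts had medians of 882 and 891.5 nt, and of all genes with transcripts of at most 1000 nt 61.8% were lower. Once the length and GC trend was removed, 27 cytosolic ribosomal protein genes were lower and 1 higher, and 8 NDUF genes were lower. The shares lower were then 35.5% and 22.2%, with 29.9% for the members and 9.45% over all genes. With the coding length and GC trend removed instead, 49 of the 76 and 16 of the 36 were lower. By that removal 23 of the 77 members and 12.2% of all genes were lower, so the order of the 3 families depended on the removal.

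Cell type markers were measured beside these changes. Of 10 adipocyte markers 1 was lower, Cidec, a lipid droplet protein (log2 fold change -0.19, adjusted p = 0.0349 in limma), and 0 were higher. Their summed level ran from 11989 to 13229 CPM in the controls and from 10426 to 13729 CPM in miR-690oe, with replicate 1 lowest and replicate 2 highest of all 8. Of 6 preadipocyte and fibroblast markers 2 were higher, Pdgfra (0.25, adjusted p = 0.0145 in limma) and Pdgfrb (0.18, adjusted p = 0.0228), both on transcripts above 4500 nt. That list summed to 3336 to 3881 CPM in the controls and 3142 to 4237 CPM in miR-690oe, highest in replicate 1. Of 6 macrophage markers 3 were measured, summing to 24.1 to 27.9 CPM in the controls and 21.4 to 24.1 CPM in miR-690oe, and Cd14 and Lyz2 were lower; Adgre1, Csf1r and Ptprc were not analysed here. Of 4 endothelial markers 1 was measured, Egfl7, at 3.14 to 3.76 CPM in the controls and 2.51 to 3.89 CPM in miR-690oe. After removal of the length and GC trend none of the 5 markers called here, Cidec, Pdgfra, Pdgfrb, Cd14 and Lyz2, was called (adjusted p = 0.328 to 0.833 in limma), and Dlk1, a preadipocyte marker named after its values were seen, was lower at -0.22 (adjusted p = 0.0261). The marker calls were each lost without 1 or more single libraries: Pdgfra without control 2, Pdgfrb without control 2 or miR-690oe 1, Cd14 without control 1 or 4 or miR-690oe 1 or 3, Cidec without control 1, 2 or 4 or miR-690oe 1 or 3, and Lyz2 without any but miR-690oe 1 or 4 (adjusted p = 0.0522 to 0.142 in limma). The part of the fat cell share in the members' change was not tested.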

How the data were processed

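RNA sequencing of 8 libraries of 3T3-L1 adipocytes, 4 control and 4 miR-690oe, was analysed from one deposited gene table. The table is named for RPKM, but each library column sums to 1000000 and all values were whole multiples of one step within 0.1 read, so the deposited values were taken as CPM without length scaling. The authors' columns of log2 fold change and log2 CPM, their likelihood ratio score and their p-value and false discovery rate were read only for the count credited to them. Per the submitters' processing notes, Trimmomatic 0.38, edgeR 3.20.9 and the build mm10 were named; no source used here gives an aligner, counter or strand setting. The members and lists were chosen with earlier results of these data known.

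From the deposited CPM, genes with at least 0.5 CPM in at least 4 libraries were kept, and log2(CPM + 0.5) was fitted with limma 3.58.1 in R 4.3.3 with a variance trend, group as the only term, two-sided, with Benjamini-Hochberg adjustment over 10658 genes and a threshold of 0.05. Lengths, GC content and 3′ UTRs came from a single transcript of each gene in GENCODE M21 on GRCm38, the assembly of mm10. Coding transcripts came first, then those ranked as principal by the annotation, and the longest was taken among ties. Exon overlaps between genes used all basic transcripts. Of 10663 entries 10619 matched, and 15 entries had been turned into dates. The length and GC trend was a spline with 5 degrees of freedom fitted in each library. Members named were, in each subunit, the 5 lowest and 2 highest changes, the 3 highest and the lowest level per length, the S18 paralogs and those with a noted role; from each list, up to 3 genes with the lowest adjusted p and up to 3 in the rarer direction. The main fit was run on simulated data that held no length trend, and the alternative fits were not. Alternatives changed the pseudocount, filter, scaling, trend, weights, block and libraries. Summaries and searches used Python 3.11.15.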

Additional observations from a re-analysis of the deposited data

Results flagged for a closer look

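In 130 groups of 4 libraries checked, one library stood far from the other 3 in 9, and chance gives about 1 in 20. Among members, Mrpl14 read 52.03 CPM in control 1 and 59.4 to 60.3 CPM in the other controls. Mrpl52 read 53.44 CPM in miR-690oe 4 and 43.7 to 45.1 CPM in the others of its group. Mrps34 read 86.19 CPM in control 2 against 76.3 to 77.9 CPM. All 3 were lower in miR-690oe, and for Mrpl14 and Mrpl52 the library that stood apart was the one nearest to the other group.

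Among the related genes, Chchd1 read 59.39 CPM in control 2 against 54.0 to 54.8 CPM, and Trub2 read 54.81 CPM in control 1 against 52.7 to 53.0 CPM. Guf1 read 85.79 CPM in miR-690oe 2 against 76.2 to 77.5 CPM. Lrpprc stood apart in replicate 2 of both groups, at 134.5 CPM against 121.5 to 123.5 CPM in the controls and at 153.6 CPM against 136.7 to 139.5 CPM in miR-690oe. Pdgfra, a fibroblast marker, read 494.2 CPM in control 2 against 586.4 to 596.2 CPM.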

How the results depend on the processing

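The pseudocounts, filters, array weights, fit without a variance trend, threshold of 0.01 and scalings kept the count of members lower within 1.5 times, and the summed ratio lay between 0.857 and 0.891 without single libraries. Leaving out 1 library gave 46 to 63 members lower and 0 to 1 higher; the 1, Mrpl50, came without miR-690oe replicate 1. After removal of the transcript length and GC trend, 23 members were lower (15 large subunit, 8 small subunit), with a median log2 fold change of -0.0847. After removal of the coding length and GC trend, an alternative chosen after seeing the data, 23 were lower (15 and 8) and the median was -0.108. Of the 61 other genes of mitochondrial gene expression, 17 were lower: 27 under quantile normalization, 8 after removal of the length and GC trend and 9 at a threshold of 0.01. The 4 higher became 2 under TMM, median-of-ratios and quantile scaling and at 0.01, 1 after removal of the length and GC trend and 0 after that of coding length; without single libraries 2 to 6 were higher, with 2 without control replicate 4 or miR-690oe replicate 2.

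Replicate numbers gave no clear sign of pairing: deviations of same-numbered libraries correlated at -0.30, 0.31, -0.10 and -0.33, and not every library correlated best with its own number. The miR-690oe deviations also hold the unequal slopes on transcript length, so these values cannot settle whether libraries were paired. With the replicate block 52 members were lower. In a fit with the replicate block and without the length and GC trend 20 were lower (12 and 8, median -0.0847), with 7 of the other genes lower and 1 higher.

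Directions turned in 8 of the genes named. Mrps2 became -0.0152 with TMM, -0.00811 with median-of-ratios and -0.0386 with quantile scaling, and lay from -0.0213 to 0.0582 without single libraries. After removal of the length and GC trend, alone or with the replicate block, Mrps18c became 0.009995, Mrps22 0.0146, Pdgfra -0.0233 and Egfl7 0.0736. After that of the coding length trend, Guf1 became -0.0398, Lrpprc -0.109 and Egfl7 0.0549. Without single libraries, Cd68 lay from -0.122 to 0.173 and Egfl7 from -0.167 to 0.0151. The causes were not tested. The planned count tests on recovered reads were not run. Depth limits Mrps36 and Mrpl23 most.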

Other observations

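The 77 members lie on 17 chromosomes. All 11 members on chromosome 11 and all 8 on chromosome 17 were lower, whereas 3 of 6 on chromosome 6 and 2 of 4 on chromosome 4 were. Over all chromosomes 56 of the 77 members were lower. Chromosomes 11, 17, 6 and 4 were picked after their values were seen, and no test was made. The share lower among all genes of each chromosome was not counted.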
